A study of Homo sapiens with 6 samples.

Results

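The genes described here code for proteins of DNA mismatch repair, and 6 were asked for: MSH6, MSH3, PMS2, MLH3, PMS1 and EXO1. Members were found by the gene symbol that the platform annotation gives each probe set, and every probe set of a gene was kept. Of the 6 genes, 5 were measured by 10 probe sets that carry 1 symbol, out of 11963 genes and 19065 such probe sets on the array. PMS2 had no probe set of its own: both of its probe sets, 209805_at and 221206_at, are also annotated to PMS2CL, a near-identical copy, and they are given separately because the signal cannot be divided between the copies. Probe set identifiers that end in _s_at or _x_at mark probes that can match more than 1 transcript.

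Affymetrix expression arrays were run on 2 lines of human colon cancer cells, 3 arrays per line. HCT116 is an established line, called poorly metastatic in the labels and widely used as a mismatch-repair-deficient model. E1 is labelled as a metastatic line obtained in vivo, with HCT116 in its own cell line label; how it was selected, and in which host, is not given in the sources used here. No treatment, genotype change or time point is stated for either line, and the labels do not say whether the 3 arrays of a line came from separate cultures, so the p-values speak of the spread between arrays alone, and that spread may be technical. The design asks which transcripts differ between the poorly metastatic and the metastatic line.

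Mismatch repair removes errors that DNA polymerases leave during replication. MutS-type proteins recognise the mismatch: MSH6 belongs to the dimer that reads base mismatches and short loops, and MSH3 to the dimer that reads larger loops. MutL-type proteins follow, among them PMS2, whose dimer nicks the new strand, and PMS1 and MLH3, which form the minor dimers. EXO1 is the exonuclease that then removes the strand with the error, before the replication clamp, polymerase and ligase fill the gap. Loss of this pathway in colon cancer is known for changes in the length of short DNA repeats.

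The promoters of MSH6, MSH3, PMS2 and EXO1 are shown because their windows hold the letters bound by E2F factors, which drive many genes of DNA replication. MCM6 for MSH6 and GINS1 for EXO1, genes of the replicative helicase, were among the nearest profiles over the arrays, as described further on. NUP155 was also among those of MSH6, and UBAP2L lay nearer to EXO1 than GINS1 did. MSH3 and PMS2 are shown for the letters alone. Sequences are from RefSeq on GRCh38.p14, 5′ to 3′ on the gene's strand, from 120 bases before to 30 after the 5′-most start site. They lie at chr2:47783025-47783174 (+ strand), chr5:80654532-80654681 (+ strand), chr7:6009077-6009226 (- strand) and chr1:241848084-241848233 (+ strand). Capitals mark an E2F motif, on either strand.
MSH6: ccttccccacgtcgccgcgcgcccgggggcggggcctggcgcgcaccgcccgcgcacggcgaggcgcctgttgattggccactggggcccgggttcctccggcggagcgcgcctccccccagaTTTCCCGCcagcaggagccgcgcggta
MSH3: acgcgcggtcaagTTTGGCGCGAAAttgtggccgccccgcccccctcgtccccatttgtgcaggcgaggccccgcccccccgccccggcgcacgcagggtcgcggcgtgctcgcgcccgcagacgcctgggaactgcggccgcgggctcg
PMS2: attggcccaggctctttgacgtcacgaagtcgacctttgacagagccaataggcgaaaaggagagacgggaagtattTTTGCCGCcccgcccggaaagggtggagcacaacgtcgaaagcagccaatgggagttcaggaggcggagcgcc
EXO1: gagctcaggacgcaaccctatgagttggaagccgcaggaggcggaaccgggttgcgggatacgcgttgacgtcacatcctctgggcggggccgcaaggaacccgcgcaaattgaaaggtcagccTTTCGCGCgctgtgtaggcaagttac

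The E2F letters searched were TTTCCCGC, TTTCGCGC, TTTGCCGC and TTTGGCGC with their reverse complements, in windows from 250 bases before to 50 after each start site. They were found in 4 of the 6 genes, where a gene counted if any of its windows held them. The 6 genes have 11 windows, up to 4 per gene. Of all 34943 windows searched, 3.30% held the letters. That is a share of windows and the other a count of genes, so no enrichment is read from them. In MSH6 the motif began at base 4 after the start site and in EXO1 at base 5, whereas in MSH3 a pair of overlapping motifs on opposite strands began 107 and 103 bases before it and in PMS2 the motif began 43 bases before. MLH3 and PMS1 had none of these letters in their windows. Of the other start sites, the 3 of MSH6 and the 1 of EXO1 had none, and the 1 of PMS2, whose window overlaps the first, had the same motif. The cAMP response element TGACGTCA, which is its own reverse complement, was found in PMS2 and EXO1, the latter 54 bases before the start site. Of all windows 1.84% held it, again a share of windows and not of genes. A match of letters is a description of the sequence, and binding was not measured here.

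The arrays differed in their control ratios and in their median intensity. The ratio of 3′ to 5′ control signal of GAPDH, which rises when the 5′ part of transcripts is under-represented, was 0.774 to 0.811 in HCT116. It was 0.803 for E1 array 1, whereas E1 arrays 2 and 3 gave 34.1 and 71.9. The same ratio of ACTB was 0.930 to 1.00 in HCT116 and 1.12, 46.1 and 89.9 on E1 arrays 1 to 3. Median intensity ran from 61.9 to 66.6 on the HCT116 arrays and from 48.1 to 61.3 on the E1 arrays, so every E1 array lay below every HCT116 array. Of the colon epithelium markers, 5 of 11 probe sets were above a mean intensity of 100 in HCT116 and 5 in E1, KRT8, KRT18 and KRT19 among them. The others were lower: CDX1, CDX2 and VIL1 read under 23 on every array. LGALS4 had means of 58.4 in HCT116 and 46.0 in E1, and TSPAN8 of 12.2 and 18.8. The summed signal of the 11 probe sets was 15198 to 17762 in HCT116 and 8250 to 13425 in E1, without overlap, and 9 of them had a difference below 0. KRT8 209008_x_at, for one, read 4693, 3169 and 4352 in HCT116 and 2862, 372 and 103 in E1, and the part of the control ratios in this was not tested. Of the markers of other cell types, 0 of 8 leukocyte, 0 of 8 endothelial and 1 of 17 fibroblast probe sets were above 100 in each line, and their summed signals were 168 to 286, 116 to 173 and 472 to 631 over the 6 arrays.

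Over all 10 probe sets of the 5 genes, none differed between the lines at a Benjamini-Hochberg adjusted p under 0.05 in limma. Over the whole array 0.770% of 22215 probe sets passed, 0.216% higher and 0.554% lower in E1, that is 48 and 123 (79 and 108 after quantile normalization, 79 and 127 with array medians subtracted). At an unadjusted p under 0.05, 1 of the 10 was lower in E1 and 0 higher, beside 16.5% of all probe sets, 11.7% lower and 4.75% higher. The arrays of the lines did not overlap for 2 of the 10, both lower in E1, beside 20.5% of all probe sets, 13.0% lower and 7.45% higher. Counts of 1 and 2 among 10 probe sets of 5 genes are too few to read a difference of the genes as a group from them. The median difference over the 10 was 0.0015 on the log2 scale, beside -0.016 over all probe sets, with 5 below 0 and 5 above. It was 0.14 after quantile normalization, beside 0.05 over all probe sets, and 0.15 with array medians subtracted, beside 0.13. In each of these scalings 4 were below 0 and 6 above. All differences are E1 minus HCT116 of log2(intensity + 32), an offset that understates the change of dim probe sets, and each is given with its 95% interval from the limma fit.

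**Figure D1:**
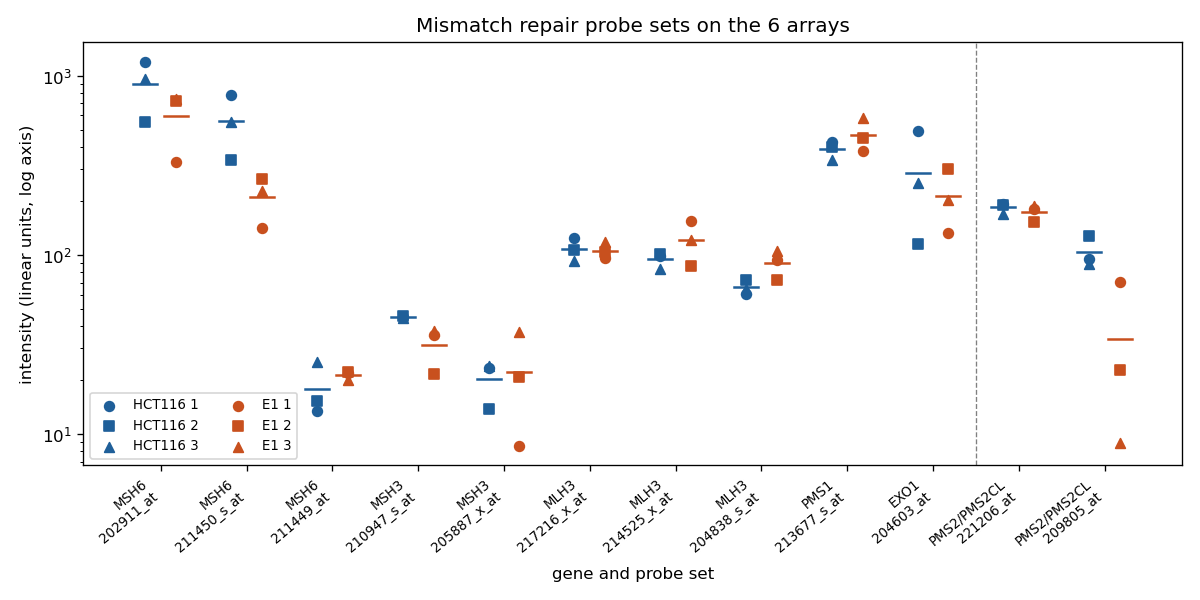
Intensity (linear units on a log axis) of each probe set on the 6 arrays, with the mean of each line as a bar; the 2 probe sets right of the dashed line are shared by PMS2 and PMS2CL. MSH6 (202911_at, 211450_s_at) and EXO1 spread widely within HCT116, MLH3 and PMS1 little, and the lines do not overlap for MSH6 211450_s_at and MSH3 210947_s_at.

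MSH6, the mismatch-reading MutS subunit, had the largest difference among the members, and its probe sets did not give the same size. Probe set 211450_s_at read 775, 337 and 552 on HCT116 arrays 1 to 3 and 141, 264 and 228 on E1 arrays 1 to 3. Every E1 array lay below every HCT116 array. The means were 555 ± 219 (SD, n = 3) and 211 ± 63.4 (SD, n = 3), a log2 difference of -1.24 (SE 0.34, 95% interval -2.06 to -0.41), with an unadjusted p of 0.0102 and an adjusted p of 0.178 in limma. In bulk RNA fewer expressing cells and less RNA per cell cannot be told apart. On E1 array 1, whose control ratio was like that of HCT116, the difference from the HCT116 mean was -1.69.

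Probe set 202911_at of MSH6 read 1197, 548 and 960 in HCT116 and 328, 718 and 744 in E1. Here the lines overlapped, since HCT116 array 2 lay below E1 arrays 2 and 3. The log2 difference was -0.59 (SE 0.40, 95% interval -1.56 to 0.39, adjusted p = 0.535 in limma), and it was -1.31 on E1 array 1 alone. Leaving out E1 array 1 moved it to -0.22, and leaving out HCT116 array 1 or 2 moved it to -0.35 or -0.90. The third MSH6 probe set, 211449_at, was dim, at 13.4 to 25.1 in HCT116 and 19.96 to 22.05 in E1, with a difference of 0.10 (95% interval -0.21 to 0.42).

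The gap between both bright MSH6 probe sets was compared within each array, which removes what they share. On the log2 scale 202911_at exceeded 211450_s_at by 0.61, 0.65 and 0.76 on the HCT116 arrays and by 1.06, 1.34 and 1.58 on E1 arrays 1 to 3. The gap was larger on every E1 array than on any HCT116 array, by 0.65 on average. Its exact two-sided permutation p was 0.10, the smallest that 3 against 3 arrays allow, and 0.30 after Benjamini-Hochberg adjustment over 9 comparisons of this kind. The E1 gaps of 1.06, 1.34 and 1.58 stood beside GAPDH control ratios of 0.803, 34.1 and 71.9, whose part in them was not tested. Where these probe sets lie in the transcript is not given in the sources used here.

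MSH3, the subunit for larger loops, gave low signals in both lines. Probe set 210947_s_at read 45.0, 45.6 and 44.3 in HCT116 and 35.6, 21.5 and 37.4 in E1. The HCT116 arrays were close together and all E1 arrays lay below them, yet the log2 difference was small, at -0.29 (SE 0.14, 95% interval -0.62 to 0.05, unadjusted p = 0.0823, adjusted p = 0.372 in limma). Probe set 205887_x_at read 23.5, 13.8 and 23.8 in HCT116 and 8.55, 20.9 and 37.1 in E1, with a difference of 0.02 (95% interval -0.51 to 0.55). Its E1 arrays lay on both sides of the HCT116 range, and its sign turned without HCT116 array 2, at -0.07, and without E1 array 3, at -0.17. Within arrays, MSH6 202911_at minus MSH3 210947_s_at was 2.90 to 3.997 in HCT116 and 2.41 to 3.81 in E1, an exact two-sided permutation p of 0.60, so an unequal change of the MutS subunits was not detectable with these arrays.

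Of the minor MutL subunits, PMS1 had a single probe set, 213677_s_at, with 428, 400.1 and 339 in HCT116 and 378, 449 and 580 in E1. The lines overlapped, and the log2 difference was 0.24 (SE 0.18, 95% interval -0.21 to 0.68, adjusted p = 0.598 in limma). On E1 array 1 alone it was -0.03, so the positive value came from E1 arrays 2 and 3.

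MLH3 had 3 probe sets, none of which separated the lines. Probe set 204838_s_at read 60.6, 72.7 and 64.2 in HCT116 and 93.7, 72.0 and 105.5 in E1. E1 array 2 fell within the HCT116 range, and the difference was 0.32 (SE 0.14, 95% interval -0.03 to 0.67, unadjusted p = 0.0698, adjusted p = 0.346 in limma). The other MLH3 probe sets were 214525_x_at, at 82.8 to 101 in HCT116 and 86.1 to 154 in E1, and 217216_x_at, at 91.8 to 124 and 95.4 to 117. Their differences were 0.25 (95% interval -0.21 to 0.71) and -0.02 (95% interval -0.35 to 0.32). For 217216_x_at the sign depended on the arrays, at 0.07 without HCT116 array 1 and 0.04 without E1 array 1. In the 3 comparisons between MLH3 probe sets the exact two-sided permutation p was 0.20 to 0.60. PMS1 minus MLH3 217216_x_at was 1.56 to 1.64 in HCT116 and 1.69 to 2.03 in E1, higher in E1 by 0.25 on average with no overlap, at the smallest exact p of 0.10 and an adjusted p of 0.30. The other MLH3 probe sets, with differences of 0.32 and 0.25, stood beside 0.24 for PMS1, so no unequal change of PMS1 and MLH3 is read from this.

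The probe sets shared by PMS2 and PMS2CL disagreed with each other. Probe set 221206_at was even, at 193, 191 and 168 in HCT116 and 179, 152 and 187 in E1, a difference of -0.08 (95% interval -0.38 to 0.22). Probe set 209805_at read 94.2, 127 and 88.4 in HCT116 and 70.4, 22.7 and 8.95 in E1. All E1 arrays lay below HCT116, but E1 array 1 only by a little, and the E1 values ran opposite to the GAPDH control ratios of 0.803, 34.1 and 71.9, whose part was not tested. The difference was -1.13 (SE 0.34, adjusted p = 0.204 in limma), and -0.39 for E1 array 1 by itself. Without E1 array 1 it was -1.50, at an adjusted p of 0.0123, in a setting where 10.6% of all probe sets passed the threshold.

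EXO1, the exonuclease, varied more within a line than between the lines. Its probe set 204603_at read 488, 115 and 251 on HCT116 arrays 1 to 3 and 132, 300.2 and 203 on E1 arrays 1 to 3. HCT116 held both the highest and the lowest of the 6 values, a ratio of 4.26, so the E1 arrays fell inside the HCT116 range. The log2 difference of -0.25 (SE 0.50, 95% interval -1.45 to 0.95, adjusted p = 0.879 in limma) has an interval wide enough to hold a difference of more than 2-fold. Its sign turned without HCT116 array 1, at 0.20, and without E1 array 1, at 0.0062.

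**Figure D2:**
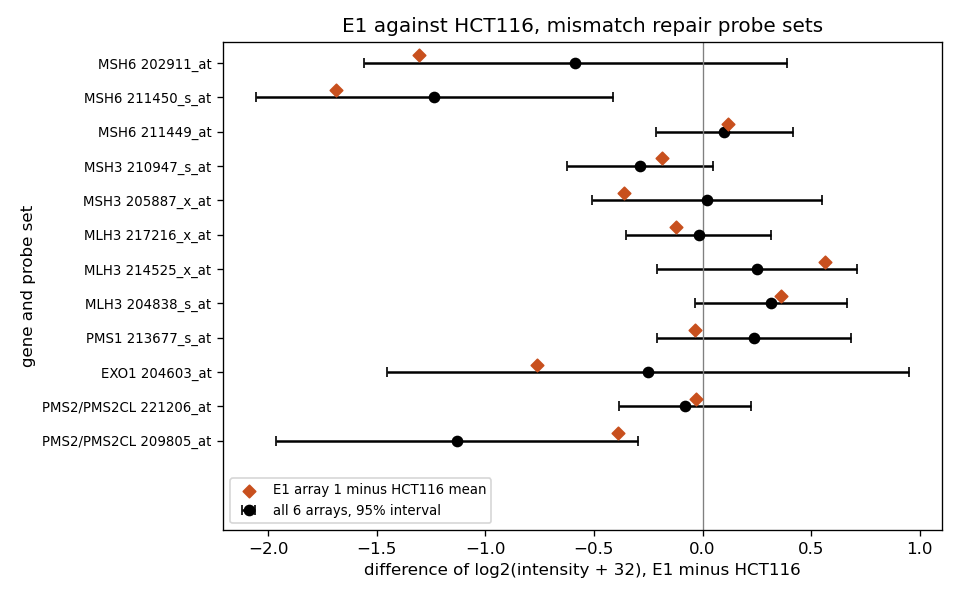
Difference of log2(intensity + 32), E1 minus HCT116, for each probe set, with the 95% interval over all 6 arrays (black) and the value of E1 array 1 against the HCT116 mean (orange). Among the 10 probe sets with 1 gene the interval leaves out 0 for MSH6 211450_s_at alone; the shared PMS2 and PMS2CL probe set 209805_at also leaves out 0, with E1 array 1 nearer to 0.

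The spread within a line differed between the members, given here as a description. The highest of the HCT116 arrays exceeded the lowest by 4.26-fold for EXO1, 2.18-fold and 2.30-fold for the bright MSH6 probe sets, and 1.20-fold to 1.35-fold for the PMS1 and MLH3 probe sets. In E1 the same ratios were 2.28-fold for EXO1, 2.27-fold and 1.87-fold for MSH6, and 1.23-fold to 1.79-fold for PMS1 and MLH3. The dim MSH3 probe sets 210947_s_at and 205887_x_at had ratios of 1.03-fold and 1.72-fold in HCT116 and of 1.74-fold and 4.34-fold in E1, and the dim MSH6 211449_at had 1.87-fold and 1.10-fold. In both lines EXO1 and MSH6 202911_at and 211450_s_at were lowest on the same arrays, HCT116 array 2 and E1 array 1. Relative to the HCT116 mean, EXO1 stood at 0.90, -0.92 and 0.02 on HCT116 arrays 1 to 3 and at -0.76, 0.26 and -0.24 on E1 arrays 1 to 3. The median of 54 probe sets of 28 replication and proliferation genes, a list that holds no member, stood at 0.40, -0.53 and 0.15 and at -0.74, 0.04 and -0.66. That list was thus also lowest on HCT116 array 2 and E1 array 1 within each line, although E1 array 3 was nearly as low, where MSH6 202911_at stood at -0.20. Some other lists had the same order. The medians on HCT116 array 2 and E1 array 1 were -0.28 and -0.36 for resynthesis and accessory genes, which include PCNA. They were -0.16 and -0.21 for base excision repair genes and -0.16 and -0.09 for leukocyte markers, whose signals were low. These were the lowest of each line. The nucleotide excision repair list was lowest on HCT116 array 3, at -0.11, and on E1 array 1, at -0.25. The double-strand break repair list was lowest on the same arrays, at -0.07 and -0.28, with HCT116 array 2 close, at -0.06. The colon, fibroblast and endothelium markers did not have this order. Over all probe sets the medians were also lowest on HCT116 array 2, at -0.03, and on E1 array 1, at -0.05, with E1 array 2 close, at -0.04. The order was thus seen over the whole array and in some lists, and not in others. On HCT116 array 2 and E1 array 1 the replication and proliferation list had the lowest medians of all lists. Whether the state of replication in these cultures has a part in the MSH6 and EXO1 values was not tested.

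**Figure D3:**
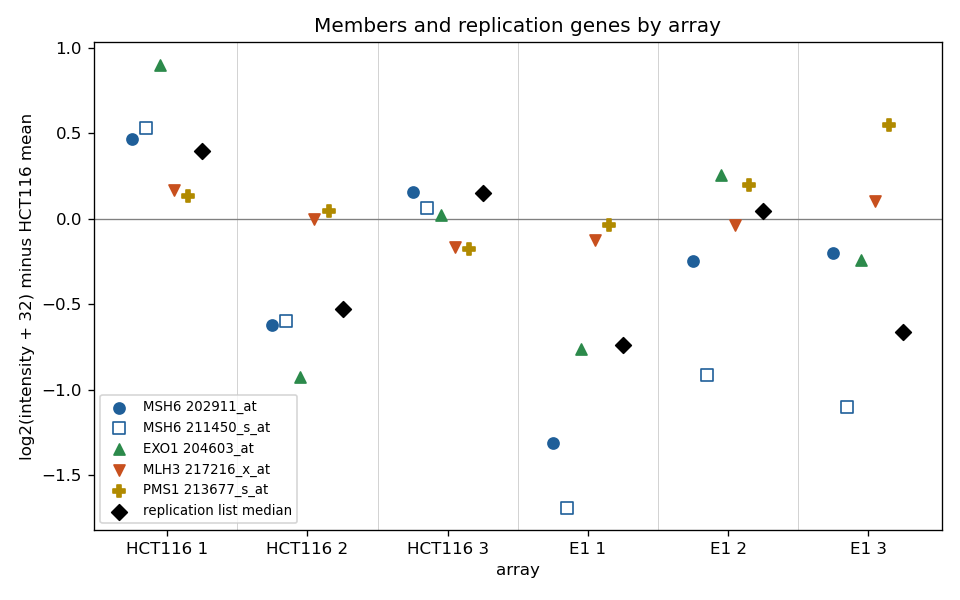
Log2(intensity + 32) relative to the HCT116 mean on each array, for MSH6, EXO1, MLH3 and PMS1 probe sets and for the median of the replication and proliferation list (black). Within each line MSH6, EXO1 and the list are lowest on HCT116 array 2 and E1 array 1, while MLH3 217216_x_at stays between -0.17 and 0.17. MSH6 211450_s_at is also low on E1 arrays 2 and 3, at -0.91 and -1.10, and the list on E1 array 3, at -0.66.

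The genes nearest to each member in profile were found by the root mean square difference of log2 deviations from the gene's own mean over the 6 arrays, among 7996 to 7998 probe sets of other genes with a mean intensity of at least 100. For MSH6 202911_at they were MCM6, a subunit of the replicative helicase, at 0.13, and the nucleoporin NUP155, at 0.14. MCM6 read 2510, 1272 and 2009 in HCT116 and 898, 1766 and 1917 in E1. For EXO1 they were UBAP2L at 0.12 and GINS1, a subunit of the helicase complex, at 0.18, and GINS1 read 986, 297 and 764 in HCT116 and 340.1, 836 and 607 in E1. These profiles share the low values of HCT116 array 2 and E1 array 1, which follows from choosing them by likeness to MSH6 and EXO1. For PMS1 the nearest were RBM15B and MON2, for MLH3 LHFPL2 and CDC42BPA, and for MSH3 RYBP and TNNI3, at 0.04 to 0.06. The 6 arrays come from 2 lines, so likeness over them is a description only.

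The genes that work beside the members were read from lists. Of 36 probe sets for 21 measured genes of resynthesis and accessory steps (of 22 listed), 0 passed in limma, 6 were lower and 1 higher at an unadjusted p under 0.05 (16.7% and 2.78%, beside 11.7% and 4.75% of all probe sets), and the median difference was -0.16. The smallest p belonged to probe set 1053_at of RFC2, a subunit of the loader that sets the PCNA clamp on DNA, which read 404, 341 and 361 in HCT116 and 165, 185 and 81.4 in E1. Its arrays did not overlap, with a difference of -1.24 (SE 0.26, adjusted p = 0.110), whereas the other RFC2 probe set, 203696_s_at, stood at -0.22. Probe set 203975_s_at of CHAF1A, a chromatin assembly subunit that binds the clamp, read 254, 115 and 195 in HCT116 and 61.7, 100.5 and 32.4 in E1, a difference of -1.19 (SE 0.35, adjusted p = 0.189). The other CHAF1A probe sets, 203976_s_at and 214426_x_at, stood at -1.01 and -0.07. With array medians subtracted 18 of the 36 were below 0 and the median was -0.01, beside 0.13 over all probe sets. After quantile normalization it was -0.05, beside 0.05, and without scaling -0.16, beside -0.016. The list median thus lay below that of all probe sets each time, but 0 of its probe sets passed, so no direction is given for this list.

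The lists of other repair pathways also held no probe set past the adjusted threshold in limma. Of 25 probe sets of 16 base excision repair genes 2 were lower and 0 higher at an unadjusted p under 0.05, of 23 of 18 nucleotide excision repair genes 3 and 0, and of 39 of 19 double-strand break repair genes 8 and 4. These are 8% and 0%, 13.0% and 0%, and 20.5% and 10.3%, beside 11.7% and 4.75% of all probe sets, so the double-strand break list lies above the whole array in both directions. Their medians were -0.10, -0.01 and -0.11, beside -0.016 over all probe sets. Each turned positive after quantile normalization, at 0.06, 0.04 and 0.04, where the median of all probe sets was also positive, at 0.05. The double-strand break list held NBN, a subunit of the complex that senses broken ends, whose probe set 202905_x_at read 333, 301 and 254 in HCT116 and 117, 143 and 98.4 in E1. Its difference was -1.12 (SE 0.16), at an adjusted p of 0.0517 in limma, and the other 3 NBN probe sets stood at -0.94, -0.65 and -0.38. XRCC4, the partner of the ligase that joins broken ends, lay the other way, with 4 probe sets from 0.30 to 0.79. Its probe set 205072_s_at read 45.6, 68.6 and 58.2 in HCT116 and 111, 103 and 156 in E1, without overlap, a difference of 0.79 (SE 0.18, adjusted p = 0.124 in limma).

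The replication and proliferation list stood lowest. Of its 54 probe sets, 0 passed in limma, 20 were lower and 0 higher at an unadjusted p under 0.05, beside 11.7% and 4.75% of all probe sets, and 42 were below 0. The median was -0.40, and it was -0.36 after quantile normalization and -0.25 with array medians subtracted. Thymidine kinase, TK1, read 787, 653 and 758 in HCT116 and 398, 502 and 379 in E1, a difference of -0.74 (SE 0.15, adjusted p = 0.103), and the helicase subunit MCM4 stood at -1.64 (SE 0.34, adjusted p = 0.105) for 1 probe set and from -1.48 to -1.15 for the other 3. Above 0 stood 12 of the 54 probe sets, among them TOP2A 201292_at at 0.52 and CCNB1 at 0.44, while TOP2A 201291_s_at stood at -0.16. From E1 array 1 by itself the median of the list came to -0.74, beside -0.16 for the 10 probe sets of the members and -0.05 for all probe sets. On E1 arrays 2 and 3 the list median was 0.04 and -0.66, and on HCT116 array 2 it was -0.53, so the lines overlapped.

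**Figure D4:**
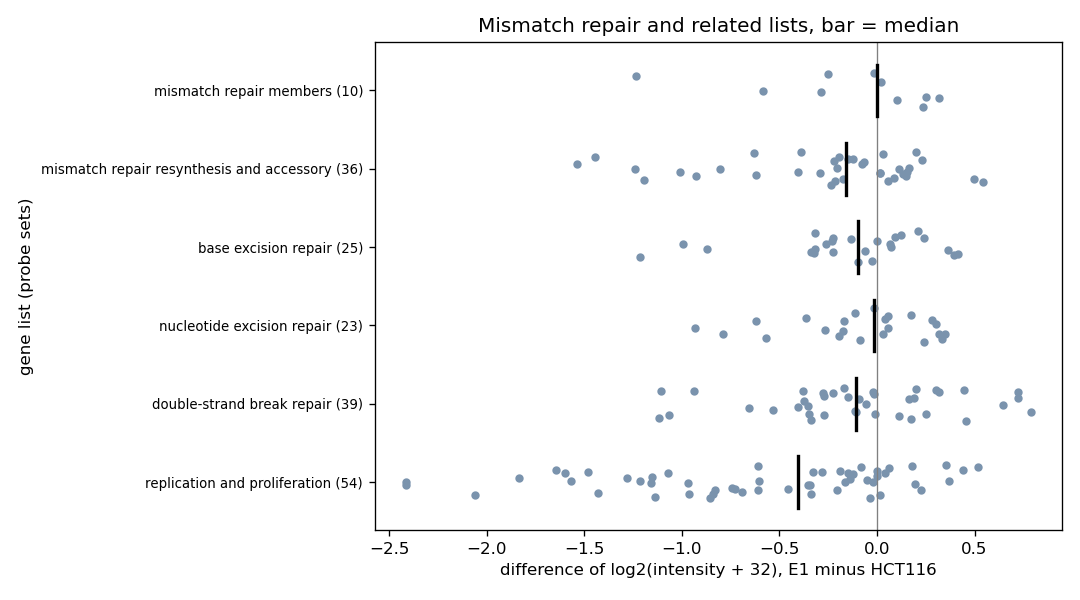
Difference of log2(intensity + 32), E1 minus HCT116, of every probe set (points) in the mismatch repair genes and 5 related lists, with the number of probe sets in brackets and the median as a black bar. The mismatch repair genes lie around 0 apart from MSH6 at -1.24 and -0.59, while the replication and proliferation list has its median at -0.40.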

How the data were processed

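The deposited values are linear intensities, 1 for each probe set on each array, and how the authors summarized, background-corrected or scaled it is not given in the sources used here; RNA was Trizol-extracted and biotin-labelled, per the labels' protocols. Values were analysed as log2(intensity + 32), with no further normalization. Of 22283 probe sets, 68 controls were left out, and 22215 were fitted with limma 3.58.1 in R 4.3.3 (lmFit, eBayes), with Benjamini-Hochberg adjustment over all of them and a threshold of 0.05. All tests were two-sided. Of these probe sets, 19065 had 1 gene symbol in the platform annotation, 1043 several and 2107 none. Members and gene lists were chosen with earlier results of these data known. Up to 3 genes of smallest p per list could be named, and the 2 nearest profiles per member. The recovery rates given next describe simulated data alone, since likeness of the simulated noise to that of these arrays was not tested. In 10 simulations with 22215 probe sets, 200 of them changed, limma recovered 30.1% of changes of 1 and 74.8% of changes of 2 on the log2 scale. In these simulations 4.72% of calls were false. Detection calls were not used here, so whether dim probe sets lay above background was not tested. Sequencing-type depth does not apply to arrays, and the number of arrays limits precision. Alternatives were other scalings, an offset of 1 or 100, removal of the dimmest 40% of probe sets, 1 probe set or the mean per gene, leaving out probe sets ending in _x_at or _s_at, trended and robust eBayes, the replicate number as a block, a threshold of 0.01, each array left out, and E1 array 1 alone. Some results are not reported here.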

Additional observations from a re-analysis of the deposited data

How the results depend on the processing

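None of the 10 probe sets of the members was called in limma under any alternative run, and the smallest adjusted p among them ranged from 0.0905 to 0.579. At an unadjusted p under 0.05 in limma their number was 4 of 10 after quantile normalization (17.7% of all probe sets), 3 without E1 array 2 (13.3%) and 2 with array medians subtracted (17.8%). It was 0 or 1 otherwise, with E1 array 1 alone set aside. Such counts among 10 probe sets of 5 genes are too few to read a difference of the genes as a group from them. The 4 after quantile normalization went in both directions. MSH6 211450_s_at was lower in E1, at -1.13, and MLH3 204838_s_at, MLH3 214525_x_at and PMS1 were higher, at 0.49, 0.46 and 0.35. The shared PMS2 and PMS2CL probe set 209805_at was called in 1 alternative, with E1 array 1 left out, where 10.6% of all probe sets were. Over all probe sets the count of calls depended on the choice: 171 in the main analysis, 310 without the dimmest probe sets, 231 with trended and robust eBayes, 111 with an offset of 100, 50 with 1 probe set per gene, 28 when identifiers with _x_at or _s_at were dropped, 5 at a threshold of 0.01, 5 to 9 without HCT116 array 1, 2 or 3 or E1 array 2 or 3, and 2358 without E1 array 1. E1 array 1 alone gave 0 calls, with 2791 at an unadjusted p under 0.05; the spread there comes from the HCT116 arrays alone, so its p-values do not speak of the difference between the lines. With the replicate block 0 probe sets were called, members included, with 3126 at an unadjusted p under 0.05; same-numbered arrays of the lines did not deviate together (correlations of -0.04, -0.31 and -0.09), and the numbers were not taken as pairs. The bright MSH6 probe sets kept their sign in every alternative that tested them, from -1.31 to -0.22 for 202911_at and from -1.69 to -0.97 for 211450_s_at. The sign turned for MLH3 217216_x_at with quantile normalization (0.197) and array medians subtracted (0.132), and the mean of the MLH3 probe sets was 0.183. It turned for 221206_at of PMS2 and PMS2CL with the same scalings (0.118 and 0.0702), for MSH3 205887_x_at with an offset of 1 (-0.0602) and with E1 array 1 alone (-0.364), and for PMS1 with E1 array 1 alone (-0.0333). Leaving out each array in turn gave -0.713 to 0.200 for EXO1, -0.100 to 0.0671 for MLH3 217216_x_at and -0.172 to 0.213 for MSH3 205887_x_at. The causes were not tested. Subtracting array medians moved the median of all probe sets from -0.016 to 0.133. The 9 comparisons within arrays had 0 adjusted p under 0.05 in every setting, which their size does not allow to pass. Low signal limits MSH3 and 211449_at of MSH6, and whether their signals lay above background was not tested.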
